A study of Homo sapiens with 6 samples.

Results

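Markers of the first embryonic lineages show whether a culture of pluripotent cells has begun to leave its state, and their levels are described here in human embryonic stem cells in which alpha satellite RNA, the transcript of the centromeric repeats, had been targeted. The panel holds 30 genes picked by name: markers of trophectoderm, of amnion and surface ectoderm, of endoderm, of primitive streak and mesoderm, and of neural and neural crest cells. All 30 were found among the 53719 gene rows of the deposited count table. Cells of the established H9 line, grown in RSeT medium for a naive-like state, received a control gapmer (3 libraries, titled Control a, b and c) or a gapmer against alpha satellite RNA (ALR; 3 libraries, titled Sense3 a, b and c and called knockdown below), and total RNA was taken 48 h later. Gapmers are antisense oligonucleotides whose DNA middle recruits RNase H, which cleaves the bound RNA. Both groups are 1 cell line with no other allele or agent named, and nothing in the labels says whether the 3 libraries of a group came from separate cultures, so p-values measure the spread between these libraries, which may be technical.

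The first cell fate choice of the embryo separates the trophectoderm, which forms the placenta, from the inner cell mass, and factors such as GATA2, GATA3, CDX2 and TFAP2A switch on the trophectoderm programme. The amnion arises from the epiblast under BMP signalling and shares many of these factors, and ISL1 and GABRP are used to tell it apart. At gastrulation Nodal and WNT signalling induce EOMES, MIXL1, GSC and MESP1 in the streak, and GATA4, GATA6, SOX17 and FOXA2 mark endoderm, whereas PAX6 and SOX1 mark neural ectoderm. Pluripotent cells hold most of these genes at a low level.

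Total counts were 25087629 to 33698831 in knockdown and 28834926 to 36576752 in control libraries, so that 1 count was worth 0.0273 to 0.0399 CPM (the usual library-scaled count, here scaled by the column total). Knockdown library a stood apart: it had counts in 29678 rows against 25898 to 26788 in the other 5, and 2330 counts in the 28S rRNA row against 30 to 269. Fitted log2 fold changes of weakly counted genes are therefore given with and without it. Of 10 general pluripotency genes used as a check of the cell type, 9 were above 1 CPM in control. Their summed level was 4792 to 4908 CPM in control and 4806 to 5331 CPM in knockdown libraries. SOX2 was listed at 0 in all 6 libraries. It lies wholly inside SOX2-OT on the same strand, a position in which 88.5% of protein-coding genes were at 0. Its 0 therefore says nothing of its level. Of 10 naive state genes, 6 were above 1 CPM, while KLF17, a defining naive factor, had 1 to 10 counts per library. Of 7 fibroblast or stroma genes, the collagens COL1A1 (18.7 to 23.8 CPM in control) and COL1A2 (70.6 to 80.2 CPM) were above 1 CPM, DCN and LUM had 0 to 11 counts per library, and THY1 was at 0. That list summed to 89.9 to 103 CPM in control and 88.4 to 95.5 CPM in knockdown libraries, and its part in the results was not tested. Alpha satellite RNA itself was not analysed here, because the table is by gene symbol.

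In control libraries, 9 of the 30 genes had a mean above 1 CPM, and the other 21 did not. The 9 came from 4 of the 5 lineage groups: CER1, MIXL1 and TBX6 of the streak and mesoderm group, NES, PAX3 and PAX6 of the neural group, ENPEP and CLDN4 of the trophectoderm group, and FOXA2 of the endoderm group. None of the panel's 5 amnion and surface ectoderm genes reached 1 CPM, whereas 9 of 11 genes of a further amnion list, described below, did. The genes nearest to the threshold were FOXA2 (1.21 CPM) and TBX6 (1.43 CPM) above it, and GATA2 (0.689 CPM) and GATA4 (0.671 CPM) below it. In bulk RNA a low level in many cells and a higher level in few cells cannot be told apart.

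**Figure D1:**
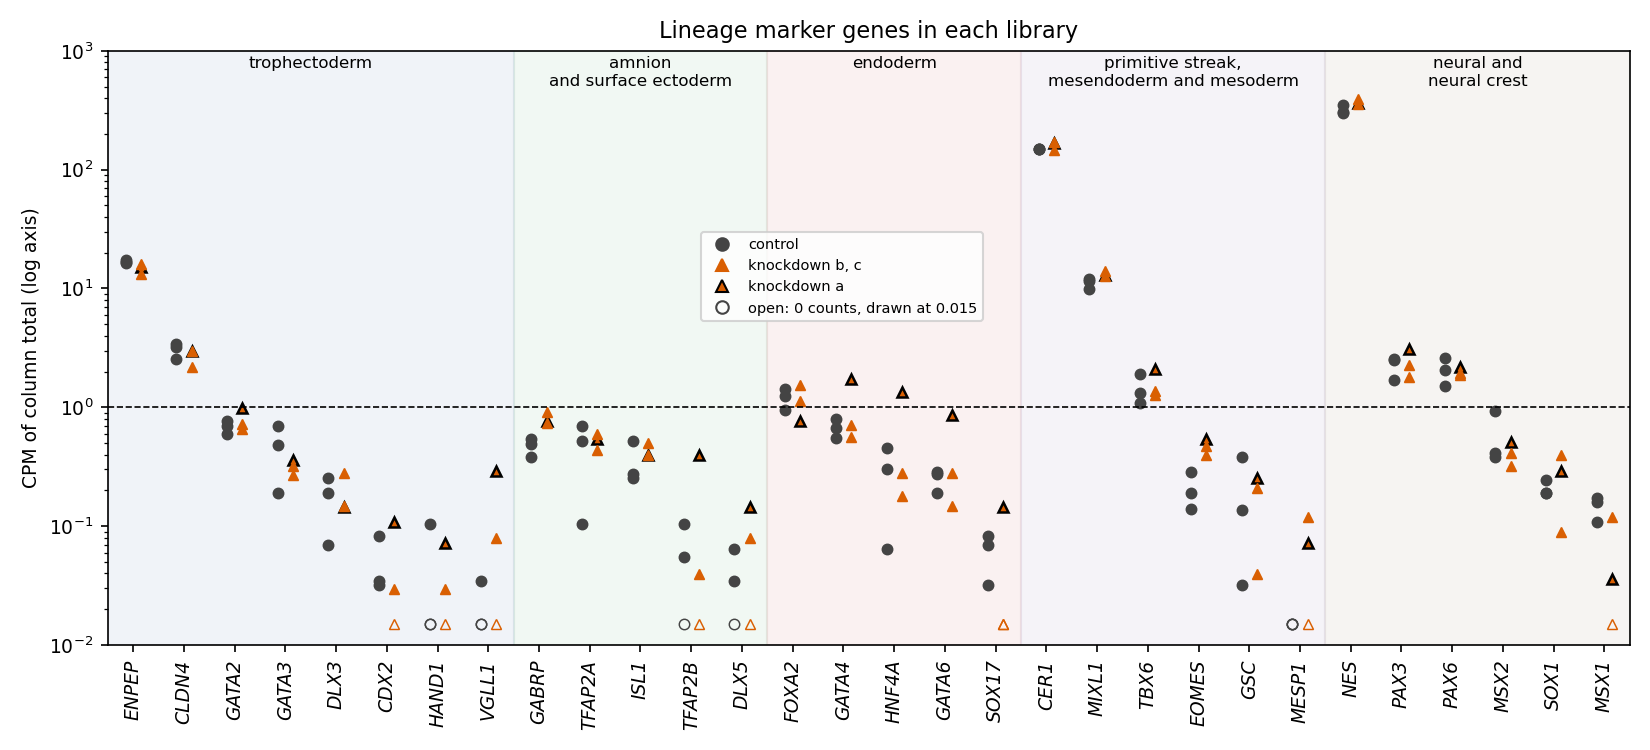
CPM of the column total (log axis) of the 30 lineage markers in each of the 6 libraries, ordered by control mean within each lineage group; circles are control libraries, triangles knockdown libraries, a black rim marks knockdown library a, open symbols are 0 counts and the dashed line is 1 CPM. NES, CER1, ENPEP and MIXL1 lie far above the line, and GATA4, HNF4A, GATA6, TFAP2B and VGLL1 have their highest point in knockdown library a.

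Levels of different genes were compared per kilobase of exon (GENCODE release 29 lengths, mean of the control libraries). CER1, a secreted antagonist of Nodal, BMP and WNT, was the highest at 123 CPM per kilobase (range 122 to 124). NES, the intermediate filament nestin of progenitor cells, followed at 57.0 (53.5 to 62.5), MIXL1 at 5.51 (4.86 to 5.93) and ENPEP at 2.17 (2.11 to 2.24). The ranges of these 4 genes did not overlap. CLDN4 (0.547 to 0.726), FOXA2 (0.368 to 0.551) and TBX6 (0.346 to 0.608) overlapped their neighbours in this order. PAX6, above 1 CPM but with 20812 exon bases, was at 0.099. That was below several genes under 1 CPM: MSX2 (0.254), GATA2 (0.154), GATA4 (0.151), GSC (0.145), GATA3 (0.134), ISL1 (0.121) and GABRP (0.102). The other genes above 1 CPM were at 0.283 (PAX3) or more. Per kilobase of gene span, ENPEP, a long gene, was at 0.085 CPM, below CLDN4 at 0.093. These spans are the outermost GENCODE limits. The RefSeq promoter windows used below end inside them, at chr4:110476154 (ENPEP) and chr7:73830995 (CLDN4), so both values depend on the annotation. At the lower end VGLL1 and TFAP2B were at 0.008 and 0.009 CPM per kilobase, and MESP1 had no count in the control libraries, which allows up to 0.0310 CPM (3 counts of the pooled control total; counting error only).

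The promoters of the panel were looked up to see whether members above 1 CPM in control and the others differ in CpG content. CpG-rich starts are common among developmental regulators. Of the 30 genes, 24 matched the RefSeq promoter table (build GRCh38.p14), and CpG dinucleotides were counted in the 250 bases before the start. The 4 sequences shown are those with the fewest and the most CpG among the genes above 1 CPM (CER1, MIXL1) and among the others (VGLL1, SOX1), each 5′ to 3′ on the gene's strand with every CpG in capitals.
CER1, chr9:14722734-14722983, minus strand: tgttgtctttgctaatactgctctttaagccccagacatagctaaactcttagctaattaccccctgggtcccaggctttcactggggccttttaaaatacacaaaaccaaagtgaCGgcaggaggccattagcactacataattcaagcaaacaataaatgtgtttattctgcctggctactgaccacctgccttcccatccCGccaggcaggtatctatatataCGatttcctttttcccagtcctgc
MIXL1, chr1:226223414-226223663, plus strand: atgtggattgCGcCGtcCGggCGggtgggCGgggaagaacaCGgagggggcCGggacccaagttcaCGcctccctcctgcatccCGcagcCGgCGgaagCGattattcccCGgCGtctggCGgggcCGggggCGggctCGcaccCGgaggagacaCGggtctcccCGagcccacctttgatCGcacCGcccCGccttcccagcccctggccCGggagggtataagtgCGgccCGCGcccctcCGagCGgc
VGLL1, chrX:136531965-136532214, plus strand: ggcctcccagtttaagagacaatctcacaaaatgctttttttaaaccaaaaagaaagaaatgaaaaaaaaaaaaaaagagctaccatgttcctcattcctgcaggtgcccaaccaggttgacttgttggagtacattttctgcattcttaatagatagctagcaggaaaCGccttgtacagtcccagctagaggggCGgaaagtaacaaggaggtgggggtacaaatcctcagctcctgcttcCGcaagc
SOX1, chr13:112066899-112067148, plus strand: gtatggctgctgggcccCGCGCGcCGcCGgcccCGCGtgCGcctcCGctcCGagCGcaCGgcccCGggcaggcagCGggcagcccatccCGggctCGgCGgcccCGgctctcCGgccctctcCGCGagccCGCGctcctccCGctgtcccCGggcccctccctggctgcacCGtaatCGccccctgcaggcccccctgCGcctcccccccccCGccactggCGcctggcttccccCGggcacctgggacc

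CER1, VGLL1 and GABRP each held 3 CpG. VGLL1 is printed in place of GABRP because a tie was settled by the lower level. CER1 was at 123 CPM per kilobase, GABRP at 0.102 and VGLL1 at 0.008. MIXL1 held 30 and SOX1, a neural factor with 3 to 10 counts per library, held 31. The 8 matched genes above 1 CPM had a median of 13.5 CpG (3 to 30) and the other 16 a median of 16 (3 to 31), beside 11 over all 35116 promoters of the table. The 2 sets spanned nearly the same range, as the plot of CpG count against level shows.

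**Figure D2:**
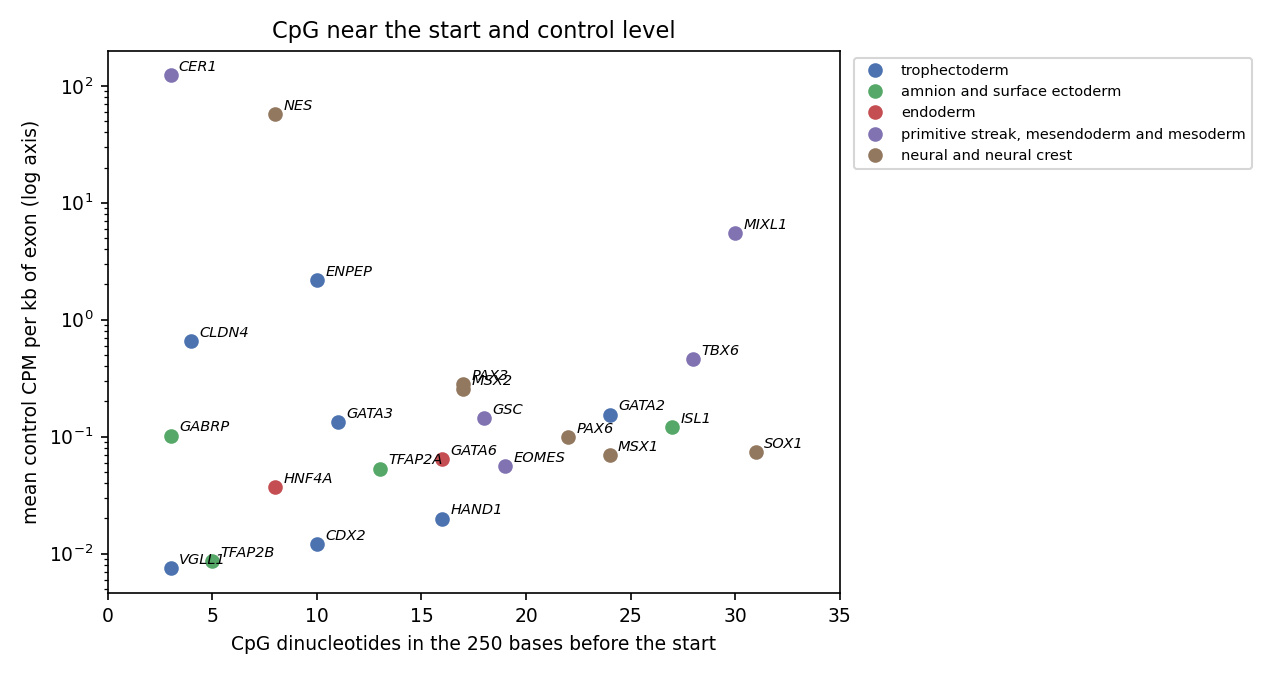
Mean control CPM per kilobase of exon (log axis) against the number of CpG dinucleotides in the 250 bases before the start, 1 point for each of the 24 matched genes, coloured by lineage group. CER1, GABRP and VGLL1 share the lowest CpG count (3) at a high, a middle and a low level, and SOX1 (31) and MIXL1 (30) have the highest counts.

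The knockdown was then compared with the control over the whole table. None of the 30 genes passed a Benjamini-Hochberg adjusted p of 0.05 in edgeR's quasi-likelihood test: 0 were called higher and 0 lower, where 0.786% of the 19721 genes tested were called (0.137% higher and 0.649% lower). The filter on low counts kept 17 of the 30, of which 3 had an unadjusted p under 0.05 (14.3% of all genes tested did, 6.68% higher and 7.57% lower): NES and EOMES above control and ENPEP below. The count of called members was also 0 with DESeq2 (1 unadjusted, 2.72% of all genes called), but 13 of the 17 had no adjusted p there and could not be called. It was 0 as well with limma-voom (3 unadjusted, 0.882% called) and with no filter on low counts, where all 30 were tested (2 unadjusted, 3.29% called). Of the 17, 11 had a log2 fold change above 0, where 54.4% of all genes tested did, and their median was 0.11 beside 0.02 over all genes tested. Without knockdown library a this median was -0.021. CPM ranges were separate between knockdown and control for 5 of the 17 (NES, MIXL1, EOMES and GABRP higher, ENPEP lower in knockdown), as they were for 20.1% of all genes tested (13.2% higher and 6.95% lower).

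**Figure D3:**
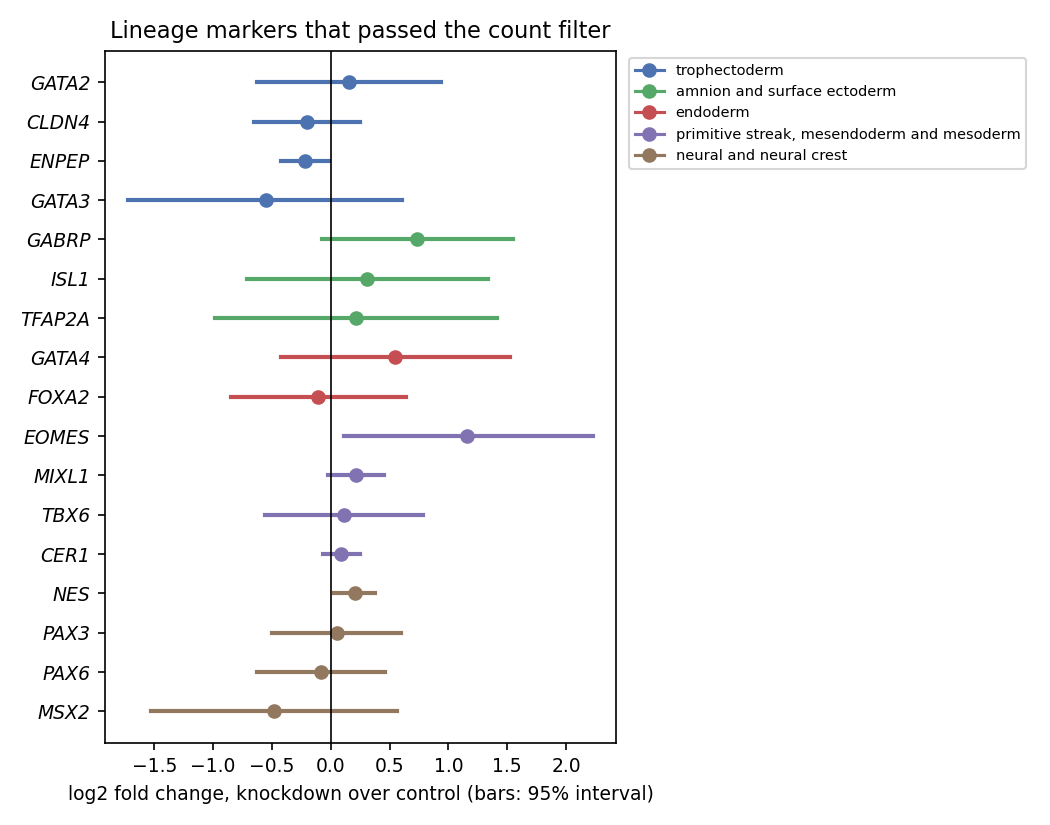
Log2 fold change of knockdown over control (point) with its 95% interval (bar) for the 17 lineage markers that passed the count filter, coloured by lineage group. The intervals of NES, EOMES and ENPEP leave out 0 before adjustment for multiple tests, and those of CER1, NES, MIXL1 and ENPEP are the narrowest.

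Among the trophectoderm genes, ENPEP, the membrane glutamyl aminopeptidase (chr4:110365733-110565285), was the best counted. In the order a, b, c, which is kept below, it had 15.3, 13.2 and 16.1 CPM after knockdown and 16.8, 16.5 and 17.5 CPM in control. All 3 knockdown libraries lay below all 3 controls. The means were 14.9 ± 1.51 and 16.9 ± 0.532 CPM (SD, n = 3 each). This is -0.22 ± 0.09 on the log2 scale (SE; 95% interval -0.42 to -0.01; edgeR adjusted p = 0.321). CLDN4, a tight junction claudin (chr7:73799542-73832693), had 3.01, 2.17 and 2.99 CPM in knockdown and 3.23, 3.41 and 2.57 CPM in control libraries. The groups overlapped, and the log2 fold change was -0.21 (95% interval -0.66 to 0.25; edgeR adjusted p = 0.701, and -0.28 without knockdown library a).

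The panel's trophectoderm transcription factors were weakly counted, with at most 27 counts in any library. The panel leaves out TFAP2C and TEAD4, which had control means of 57.5 and 97.1 CPM. GATA2 had 27, 22 and 18 counts in knockdown and 22 in each control library (log2 fold change 0.16; 95% interval -0.62 to 0.94, and -0.02 without knockdown library a). GATA3 had 10, 9 and 8 counts against 14, 22 and 7 (log2 fold change -0.55; 95% interval -1.72 to 0.61, and -0.65 without knockdown library a). CDX2 and HAND1 had 0 to 3 counts in every library, DLX3 had 2 to 8, and VGLL1, a TEAD cofactor, had 8, 0 and 2 in knockdown and 1, 0 and 0 in control libraries. A 2-fold change in either direction lay outside the interval of GATA2. For GATA3 a 2-fold increase lay outside it and a 2-fold decrease inside it. The summed level of the 8 genes was 16.5 to 20.5 CPM in knockdown and 21.1 to 21.6 CPM in control libraries, most of it from ENPEP.

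Of the amnion and surface ectoderm genes, GABRP, a GABA receptor subunit (chr5:170763350-170814047), named after its values were seen, had 21, 25 and 23 counts in knockdown and 11, 17 and 18 in control libraries. In CPM these were 0.761, 0.742 and 0.917 against 0.381, 0.542 and 0.492, with no overlap between the groups. The log2 fold change was 0.73 ± 0.37 (SE; 95% interval -0.07 to 1.55; edgeR adjusted p = 0.397), and 0.78 without knockdown library a. ISL1, a LIM homeobox factor, had 11, 17 and 10 counts against 15, 8 and 10 (log2 fold change 0.31; edgeR adjusted p = 0.813, and 0.38 without knockdown library a). TFAP2A, an AP-2 factor of surface ectoderm and trophectoderm, had 15, 20 and 11 against 3, 22 and 19, the lowest value being in a control library (log2 fold change 0.21; edgeR adjusted p = 0.896, and 0.21 without knockdown library a). DLX5 had 0 to 4 counts per library. TFAP2B had 11 counts in knockdown library a and 0 to 3 in the other 5.

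The endoderm genes split between FOXA2 and the rest. FOXA2, a pioneer factor of endoderm and axial mesendoderm (chr20:22581005-22585455), had 0.761, 1.13 and 1.55 CPM in knockdown and 1.25, 1.43 and 0.957 CPM in control libraries, and it exceeded 1 CPM in 2 of the 3 controls. The groups overlapped, with a log2 fold change of -0.11 (95% interval -0.85 to 0.64; edgeR adjusted p = 0.920, and 0.12 without knockdown library a). GATA4 had 48, 24 and 14 counts in knockdown and 23, 21 and 20 in control. Its log2 fold change was 0.55 (edgeR adjusted p = 0.625), and -0.07 without knockdown library a. GATA6, a factor of primitive endoderm, had 24, 5 and 7 counts against 8, 9 and 7. HNF4A, a nuclear receptor of visceral endoderm and liver, had 37, 6 and 7 against 13, 2 and 11. In these 3 genes knockdown library a was the highest of the 6, and the part of that library's other differences in this was not tested. SOX17 had 0 to 4 counts per library.

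The streak and mesoderm group held the most strongly expressed member per kilobase. CER1 (chr9:14719724-14722717) had 166, 172 and 146 CPM in knockdown and 150, 149 and 148 CPM in control libraries. Knockdown library c lay below the controls and the other 2 above them. The means were 161 ± 13.4 and 149 ± 1.32 CPM (SD, n = 3 each), which on the log2 scale is 0.09 ± 0.07 (SE; 95% interval -0.07 to 0.25; edgeR adjusted p = 0.619). MIXL1, a homeobox factor of the streak (chr1:226223618-226227054), had 12.9, 13.9 and 12.6 CPM against 11.7, 12.0 and 9.87. Its groups did not overlap, and the log2 fold change was 0.21 ± 0.11 (SE; 95% interval -0.02 to 0.45; edgeR adjusted p = 0.403). TBX6, a T-box factor of paraxial mesoderm (chr16:30085793-30091887), had 2.10, 1.37 and 1.28 CPM against 1.91, 1.08 and 1.31, with overlap (log2 fold change 0.11; edgeR adjusted p = 0.903, and -0.12 without knockdown library a).

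EOMES, the T-box factor that drives mesendoderm (chr3:27715949-27722711), had 15, 16 and 10 counts in knockdown and 4, 9 and 7 in control libraries. These are 0.543, 0.475 and 0.399 CPM against 0.139, 0.287 and 0.191 CPM, and the groups did not overlap. The log2 fold change was 1.16 ± 0.49 (SE, n = 3 each; 95% interval 0.11 to 2.23; edgeR adjusted p = 0.304), and 1.06 without knockdown library a (edgeR adjusted p = 0.422). At these counts the size of the difference was poorly determined. MESP1, the early cardiac mesoderm factor, had 2, 4 and 0 counts in knockdown and none in control libraries, and GSC, the organizer homeobox factor, had 7, 7 and 1 against 11, 1 and 5.

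Among the neural genes, NES (chr1:156668763-156677397) had 366, 395 and 354 CPM in knockdown and 347, 306 and 297 CPM in control libraries. In CPM of the column total every knockdown library lay above every control, the closest pair being knockdown c and control a. With the TMM library scaling of the edgeR fit, control a lay slightly above knockdown c, so the separation depended on the scaling. The means were 372 ± 21.4 and 317 ± 26.9 CPM (SD, n = 3 each), which on the log2 scale is 0.20 ± 0.08 (SE; 95% interval 0.03 to 0.38; edgeR adjusted p = 0.279). It was 0.23 without knockdown library a (edgeR adjusted p = 0.313). PAX6, the eye and forebrain factor (chr11:31784779-31818062), had 2.17, 1.87 and 1.95 CPM against 2.08, 1.499 and 2.62 (log2 fold change -0.08; 95% interval -0.63 to 0.46; edgeR adjusted p = 0.915, and -0.14 without knockdown library a). PAX3, a factor of dorsal neural tube and neural crest (chr2:222199888-222298996), had 3.08, 1.81 and 2.27 CPM against 1.70, 2.49 and 2.54 (log2 fold change 0.05; 95% interval -0.50 to 0.60; edgeR adjusted p = 0.949, and -0.17 without knockdown library a). In both the groups overlapped. MSX2, a homeobox target of BMP signalling, had 14, 14 and 8 counts against 27, 12 and 15 (log2 fold change -0.48; edgeR adjusted p = 0.693, and -0.62 without knockdown library a). MSX1 had 0 to 5 counts per library.

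The 21 genes at or below 1 CPM in control were summed to describe the level of the weakly counted markers as a whole. The sum was 9.996 CPM in knockdown library a, 5.31 in b and 5.66 in c, against 6.10, 5.36 and 4.57 in the 3 controls. Knockdown libraries b and c lay within the control range and a above it. In library a the endoderm genes (GATA4, GATA6, HNF4A and SOX17) summed to 4.09 CPM against 1.04 to 1.60 in the other 5 libraries. It was the highest library in 10 of the 21 genes. The same held in 41.8% of all 13123 rows with a control mean above 0 and up to 1 CPM. All 30 genes had a count in knockdown library a, compared with 25 to 29 in the other libraries.

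**Figure D4:**
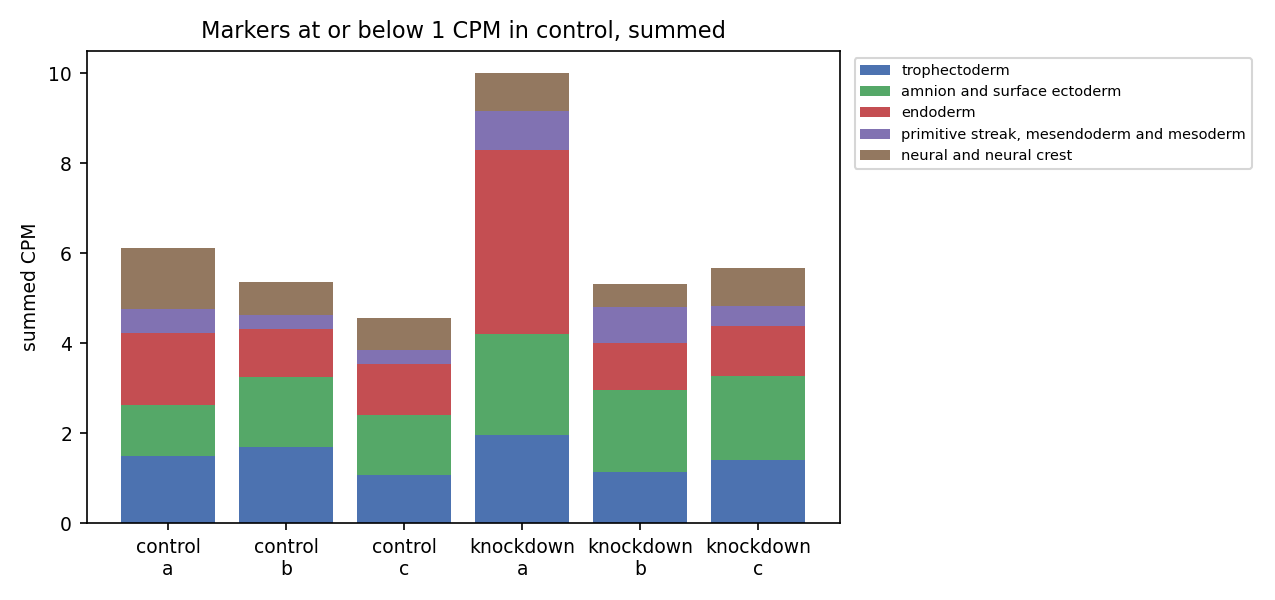
Summed CPM of the 21 lineage markers with a control mean at or below 1 CPM, per library, with each bar split by lineage group. Knockdown library a reaches 9.996 CPM and the other 5 lie between 4.57 and 6.10 CPM, the gap being largest in the endoderm segment.

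Other markers of the same lineages, from 5 lists, were read beside the panel. None of their genes passed the adjusted threshold in the edgeR fit. In the trophoblast list 12 of 24 genes had a control mean above 1 CPM and 12 did not. Among the first were TFAP2C (57.5 CPM), TEAD4 (97.1 CPM) and TEAD3 (28.0 CPM). The fit tested 15 of the 24, with a median log2 fold change of 0.15 and 3 unadjusted p-values under 0.05, all above control. The 2 smallest belonged to the simple epithelial keratins KRT18 (94.8 ± 9.33 against 72.1 ± 3.58 CPM; log2 fold change 0.37; edgeR adjusted p = 0.0626) and KRT8 (230 ± 16.5 against 188 ± 5.25 CPM; 0.27; edgeR adjusted p = 0.115), which overlap each other on opposite strands. The placental genes CGB5, ERVW-1 and ERVFRD-1 were listed at 0 in all 6 libraries. ERVFRD-1 lies wholly inside SMIM13 on the opposite strand, a position in which 92.8% of protein-coding genes were at 0 in the table, so its 0 says nothing of its level.

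The amnion list, which includes BMP4 and its ID targets, had 9 of 11 genes above 1 CPM in control. The whole list summed to 90.4 to 100 CPM there. The edgeR fit tested 10, all with a log2 fold change above 0 (54.4% of all genes tested). Their median was 0.28, and 3 had an unadjusted p under 0.05, all higher (6.68% of all genes tested). The list was chosen with earlier results of these data known, and the shared direction was not tested. ID3, an inhibitor of basic helix-loop-helix factors, had 288, 412 and 283 counts in knockdown and 258, 232 and 229 in control libraries (log2 fold change 0.57; edgeR adjusted p = 0.0943), and ID1 was at 0.26 (edgeR adjusted p = 0.190). The endoderm and hypoblast list had a median of 0.13 over 9 tested genes and 1 unadjusted p-value under 0.05 (higher). Its smallest p-values were those of the basement membrane genes COL4A1 (log2 fold change 0.21; edgeR adjusted p = 0.227) and LAMA1 (0.13; edgeR adjusted p = 0.409). The streak and mesoderm list had a median of -0.19 over 7 (1 higher and 2 lower at an unadjusted p under 0.05), with HAPLN1 at -0.60 (edgeR adjusted p = 0.246, and -0.72 without knockdown library a) and WNT3 at -0.24 (edgeR adjusted p = 0.269). The neural and crest list had a median of 0.17 over 14 (3 higher at an unadjusted p under 0.05). Its smallest p-values were those of SIX3, an anterior neural homeobox factor with 14, 19 and 9 counts against 6, 4 and 2 (1.87; edgeR adjusted p = 0.164, and 1.85 without knockdown library a), and SOX3 (0.63; edgeR adjusted p = 0.254, and 0.65 without knockdown library a).

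In the 3 lists read as checks of the cell type, 0 genes passed the adjusted threshold in the edgeR fit. Of the pluripotency genes, POU5F1 was at 134 ± 14.6 against 98.7 ± 12.9 CPM (SD; log2 fold change 0.42; edgeR adjusted p = 0.0948) and LIN28A at 0.19 (edgeR adjusted p = 0.269). Of the naive state genes, DNMT3L had 41, 45 and 36 counts against 85, 75 and 58 (-0.72; edgeR adjusted p = 0.258, and -0.74 without knockdown library a), with no overlap, and DPPA3 was at 0.12 (edgeR adjusted p = 0.589). Of the stroma genes, PDGFRB, a growth factor receptor, had 49, 44 and 43 counts against 19, 33 and 15 (1.15; edgeR adjusted p = 0.188, and 1.08 without knockdown library a), also with no overlap, and COL1A2 was at -0.20 (edgeR adjusted p = 0.289). The 8 lists held 115 genes, of which 0 passed in the edgeR fit and 4 (KRT18, KRT8, ID3 and POU5F1) with DESeq2. These 4 are 3.48% of the 115, which include genes too weakly counted to be tested. With DESeq2 2.72% of all genes tested passed. The 2 shares have unlike bases, since over the tested list genes alone the first would be higher.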

How the data were processed

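The authors deposited raw read counts per gene symbol, 1 column for each of the 6 libraries. Per the submitters' processing notes, Trimmomatic 0.39, STAR 2.7.8a, featureCounts, Subread 2.14.2 and build hg38 were used; the annotation and strand setting are not given in the sources used here. CPM values were computed from the column totals. The whole table was fitted with edgeR 4.0.16 (R 4.3.3): filterByExpr at its defaults, TMM scaling, glmQLFit and glmQLFTest with group as the only term, two-sided, Benjamini-Hochberg over all 19721 genes kept. The SE was taken from the fitted coefficient and its F statistic, and the 95% interval from that SE. Alternatives used DESeq2 1.42.0, limma 3.58.1 (voom), other scalings, no filter, thinning, the replicate letter as a block, and each library left out. The procedure was tested on simulated counts. The intervals take in the fitted spread between libraries. The count limit given for MESP1 covers counting error only.

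The members and the related lists were chosen with earlier results of these data known. Members above 1 CPM in control or with an unadjusted p under 0.05 have CPM per library, log2 fold change and adjusted p given. Members with at least 10 counts in 1 library at 3 times the CPM of each other library (TFAP2B, GATA6) are given by counts. The 2 genes with the smallest p of each list have at least the log2 fold change and adjusted p given. GABRP, GATA4, HNF4A and other weakly counted members were described after their values were seen. Gene lengths, coordinates and overlaps come from GENCODE release 29 (GRCh38), and promoter sequences from RefSeq (GRCh38.p14). DLX3, DLX5, GATA4, SOX17, FOXA2 and MESP1 had no entry. Of the 559 protein-coding genes lying wholly inside another gene of the table on the opposite strand only, 92.8% were at 0 in all libraries, as were 88.5% of the 269 inside a gene on the same strand, against 7.18% of those overlapping no other gene. No member lay wholly inside another gene, 24 overlapped none, and PAX6 shared 16.7% of its span with ELP4. The 28 rows whose symbol had become a date held 0.207% of the counts and stayed in the totals.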

Additional observations from a re-analysis of the deposited data

How the results depend on the processing

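The count of called panel genes was 0 in all 14 alternatives, the 6 that each left out a library included, and the lowest adjusted p of any panel gene over them was 0.121 (ENPEP, without knockdown library c). DESeq2 gave no adjusted p for 13 of the 17. The number above 1 CPM in control was 8 when every control library had to pass, 12 at 0.5 CPM, 7 at 2 CPM and 9 otherwise. Over the fits that each left out 1 library, the panel's median log2 fold change had values from -0.021 (without knockdown library a) to 0.20 (without knockdown library c). Changes of sign were counted for the 10 tested panel genes above 1 CPM in control or with an unadjusted p under 0.05. Of their 139 values, 7 changed sign, all when a library was left out. FOXA2 ran from -0.39 to 0.12, TBX6 from -0.12 to 0.38, PAX3 from -0.17 to 0.20 and PAX6 from -0.27 to 0.13. Of the other tested panel genes, GATA2 (-0.02 to 0.26), GATA4 (-0.07 to 0.80), TFAP2A (-0.22 to 0.68) and MSX2 (-0.71 to 0.05) also changed sign. GATA3, GABRP and ISL1 did not. Among the 115 list genes, where 0 passed in the main fit, 1 (KRT18) passed with library size alone and 4 with DESeq2 (KRT18, KRT8, ID3 and POU5F1). With no filter on low counts 6 passed (those 4, ID1 and PDGFRB). When each library was left out 0 to 7 passed, the highest without knockdown library c. In that fit 6.4% of all genes tested passed, and 6.09% of the 115 list genes. The 115 include genes that were not tested, so the 2 shares have unlike bases. In the other 5 such fits 0 list genes and 0.127% to 0.507% of all genes passed. The cause was not tested.

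Libraries with the same letter were not treated as pairs in the main fit. Same-letter deviations from the group means correlated at 1.23e-05 (a), 0.116 (b) and -0.0251 (c). Those of different letters correlated at -0.0876 to 0.0907. These values cannot settle whether the libraries were pairs. With the replicate block, 0 panel genes and 1 list gene (KRT18) passed, and 393 genes in all instead of 155.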

Other observations

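Of the 9 neural and crest list genes with a control mean above 0 and up to 1 CPM, 4 had their highest CPM in knockdown library a, beside 41.8% of all rows in that range. The count was 9 of 12 for streak and mesoderm, 3 of 5 for endoderm and hypoblast, and 2 of 2 for amnion. It was 3 of 9 for trophoblast, 2 of 3 for the naive state and 2 of 4 for stroma. PAX7 and PAX2, chosen after their values were seen, are 2 of the 4 neural and crest genes highest in knockdown library a. PAX7, a paired-box factor of neural crest and muscle precursors, had 69 counts there, 3 in each of the other 2 knockdown libraries, and 11, 10 and 20 in the controls. Its log2 fold change was 1.04 with that library and -2.01 without it (edgeR adjusted p = 0.649 and 0.207). PAX2, a paired-box factor of kidney and midbrain, had 37 counts there and 4 to 9 in the other 5 libraries. 

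SOX2, a core pluripotency factor, was listed at 0 in all 6 libraries, as were SOX9 and SOX10. In GENCODE release 29, SOX2 lies wholly inside SOX2-OT on the same strand and SOX10 wholly inside POLR2F on the opposite strand. In these positions 88.5% and 92.8% of protein-coding genes were at 0, so the 0 of either says nothing of its level. SOX9 lies inside no other gene of the table. LIN28A, another gene of the pluripotency list, had 40657 to 63074 counts per library.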
